A study of Mus musculus with 18 samples.

Results

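The Gadd45, Btg and Tob genes and Cdkn1a are small families of growth arrest genes that many cells can induce as an early response to a stimulus. They were taken here as every probe set annotated to Gadd45a, Gadd45b, Gadd45g, Btg1, Btg2, Btg3, Tob1, Tob2 or Cdkn1a and to no other gene symbol. Of these 9 genes, 8 had such a probe set, out of 12394 genes on the array that had one. The only probe set for Btg3 also carried the symbol Gm7334 and was left out. The 8 genes had 16 probe sets, and 13 of them, with at least 1 for every gene, exceeded 4 on the log2 scale in 3 or more arrays and were tested. The other probe sets were dim: 1 for Gadd45b and 1 for Tob2 stayed at or below 4 in every array, and 1 for Cdkn1a passed it in 1 array.

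The Gadd45 proteins are small acidic proteins that bind the cell cycle kinase Cdk1, the sliding clamp PCNA and the kinase MEKK4, and Gadd45b has been linked to activity-dependent DNA demethylation in neurons. The Btg and Tob proteins share an N-terminal domain through which they bind the Caf1 deadenylases of the CCR4-NOT complex, and so speed the shortening of mRNA tails. Cdkn1a encodes p21, an inhibitor of cyclin-dependent kinases and a classical target of p53, as are Gadd45a and Btg2. In post-mitotic neurons several of these genes respond to synaptic activity through calcium signalling and the transcription factor CREB, which CaMKIV, the product of Camk4, phosphorylates.

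Expression was measured on 18 Affymetrix arrays, 1 per mouse, of striatum including the nucleus accumbens. The groups were 6 mut mice given cocaine, 6 wt mice given cocaine, 3 mut mice given saline and 3 wt mice given saline. All were littermates of 10 to 20 weeks that were housed singly and handled for 5 days, and cocaine was injected into the peritoneum at 25 mg/kg and the striatum collected 1 h later. The series concerns the loss of CaMKIV, but the labels name neither the allele nor the cells in which it was lost, and wt animals are called controls. Genotype and treatment came from the sample titles, since the separate description lines matched the title in 0 of 18 samples. In the titles 12 animals (3 of every group) carry Arabic numbers, and 6 carry Roman ones, 3 mut and 3 wt mice that all received cocaine. A term for this numbering was kept in every main fit, so the cocaine difference averaged over genotypes rests on the Arabic-numbered arrays. The differences within a genotype and the interaction also draw on the Roman-numbered arrays. They take the numbering difference as equal in both genotypes.

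The array medians lay between 4.98 and 5.19 (log2), and their number limits the precision. The Camk4 probe set 1426167_a_at averaged 7.27 ± 0.27 in mut and 7.65 ± 0.10 in wt mice after cocaine (SD, n = 6 each). After saline it averaged 7.30 ± 0.16 in mut and 7.65 ± 0.06 in wt mice (SD, n = 3 each). The difference between mut and wt was −0.39 ± 0.10 (SE) after cocaine and did not pass the test (limma, adjusted p = 0.427), and the labels do not say whether this probe set lies in the deleted part of the gene. Among markers of striatal spiny neurons Ppp1r1b had a mean log2 of 13.4 and Penk of 13.9, far above the filter value of 4. Cortical Tbr1 and the choroid plexus gene Ttr, each the only tested gene of its list, averaged 3.64, below that value. They varied between animals, with Tbr1 up to 5.11 in wt saline and Ttr up to 5.29 in mut cocaine arrays. Ttr averaged 4.18 ± 1.35 in mut and 3.21 ± 0.78 in wt mice after cocaine (SD, n = 6 each). Mut cocaine replicate 5, a Roman-numbered animal, stood apart, with an average r of 0.966 to the remaining arrays and an actin 3′ minus 5′ log2 difference of 3.59, against 1.57 to 1.91 in the other Roman-numbered arrays. RNA came from whole tissue, so more RNA per cell and more cells of a type cannot be told apart.

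To show how the proximal promoters of responding and non-responding paralogues differ in their letters, the 250 bases before the start site are printed for Btg2 and Btg1, for Gadd45b and Gadd45g, whose message levels went together, and for Tob2 (RefSeq, GRCm38.p6, each read 5′ to 3′ along the gene). They lie at chr1:134079156-134079405 on the minus strand, chr10:96616751-96617000 on the plus strand, chr10:80929841-80930090 on the plus strand, chr13:51846425-51846674 on the plus strand and chr15:81858327-81858576 on the minus strand. Capitals mark the cAMP response element TGACGTCA, its shorter form TGACG on either strand (read as CGTCA where it lies on the opposite one), the E-box CACGTG, and the TATA box TATAAA.
Btg2: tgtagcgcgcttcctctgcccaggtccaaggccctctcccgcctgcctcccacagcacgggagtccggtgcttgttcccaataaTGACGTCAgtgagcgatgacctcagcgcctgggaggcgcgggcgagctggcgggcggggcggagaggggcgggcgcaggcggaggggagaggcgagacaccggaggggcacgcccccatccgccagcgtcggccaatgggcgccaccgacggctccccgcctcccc
Btg1: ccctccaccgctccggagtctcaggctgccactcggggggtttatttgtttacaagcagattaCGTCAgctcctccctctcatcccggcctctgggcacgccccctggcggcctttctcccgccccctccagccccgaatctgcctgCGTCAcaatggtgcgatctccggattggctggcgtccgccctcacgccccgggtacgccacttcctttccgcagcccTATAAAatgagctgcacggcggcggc
Gadd45b: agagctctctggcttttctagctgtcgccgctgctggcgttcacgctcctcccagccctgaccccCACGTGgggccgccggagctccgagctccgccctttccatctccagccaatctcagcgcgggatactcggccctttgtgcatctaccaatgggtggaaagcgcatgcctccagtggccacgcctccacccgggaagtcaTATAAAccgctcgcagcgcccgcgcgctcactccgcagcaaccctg
Gadd45g: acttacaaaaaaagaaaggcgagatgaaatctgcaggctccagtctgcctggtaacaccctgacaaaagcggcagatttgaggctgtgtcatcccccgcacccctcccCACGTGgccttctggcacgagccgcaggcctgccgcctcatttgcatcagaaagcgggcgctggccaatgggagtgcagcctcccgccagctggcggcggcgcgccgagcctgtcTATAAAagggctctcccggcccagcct
Tob2: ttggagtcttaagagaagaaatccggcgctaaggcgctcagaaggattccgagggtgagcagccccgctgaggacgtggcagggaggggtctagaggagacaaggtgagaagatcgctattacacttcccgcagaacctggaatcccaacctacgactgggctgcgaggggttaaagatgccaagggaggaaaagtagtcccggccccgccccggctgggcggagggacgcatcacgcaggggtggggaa

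The full cAMP response element, the sequence CREB binds, was found in the Btg2 promoter, 166 to 159 bases before the start, and in 1 of the 8 genes. Over all 32851 promoter entries of the same length, 1.55% held it on either strand. The shorter form, which is also part of every full element, occurred in 3 genes, in Btg2, at 187 to 183 and 103 to 99 bases before the start of Btg1, and at 96 to 92 bases before that of Tob1, against 17.8% of all entries. The E-box was found at 185 to 180 bases before the start of Gadd45b and at 142 to 137 before that of Gadd45g, in 2 of the 8 genes and in 6.02% of all entries. The AP-1 motif TGANTCA, searched on both strands, was in 0 of the 8 genes and in 6.75% of all entries. The TATA box, searched on the sense strand, was in 4 of the 8 genes, Gadd45b, Gadd45g, Btg1 and Tob1, and in 7.59% of all entries. Tob2 held none of these letters in this window. The motifs were chosen with the sequences in view and a match is a description of letters, not of binding.

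After cocaine, 4 of the 8 genes rose: Gadd45b, Gadd45g, Btg2 and Tob2. Gadd45a, Btg1, Tob1 and Cdkn1a did not pass the test. Averaged over the genotypes, 5 of the 13 probe sets passed (limma, adjusted p under 0.05 over all 12674 tested probe sets), all higher after cocaine, against a background of 0.221%, or 28 probe sets, over the whole array. The fitted difference was positive for 12 of the 13, and the median over the leading probe sets of the 8 genes, the brightest for each gene, was 0.47 on the log2 scale, against 0.00 over all probe sets. In 9 of the 13 the unadjusted p was under 0.05, against 5.09% of all probe sets. All 12 cocaine arrays were above all 6 saline arrays in 5 of the 13, against 52 probe sets or 0.41% over the whole array, and all Arabic-numbered cocaine arrays were so in 0.631% of the whole array. The counts of positive differences, of unadjusted p and of arrays above saline include Btg2 1448272_at. That probe set exceeded 4 in cocaine arrays only, so it was tested through the group where it is high and adds no support. Without wt saline replicate 1 or 2, 1 gene passed in place of 4, and it was Btg2. Without mut saline replicate 1, wt cocaine replicate 2 or wt saline replicate 3, 2 passed. Over the whole array the number of probe sets called ran from 20 to 362 when single arrays were left out.

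Leaving out mut cocaine replicate 5 did not move these averaged differences, since it is Roman-numbered, but it narrowed their spread. Over the whole array 362 probe sets, or 2.86%, then passed, 95 of them higher. The same 5 probe sets of these genes passed with adjusted p-values of 0.000483 to 0.0102 (limma), and the second probe sets of Btg2 and Tob2 passed as well, at 0.0132 and 0.00292. The second Btg2 probe set was tested only through its cocaine arrays, so its passing adds no support.

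**Figure D1:**
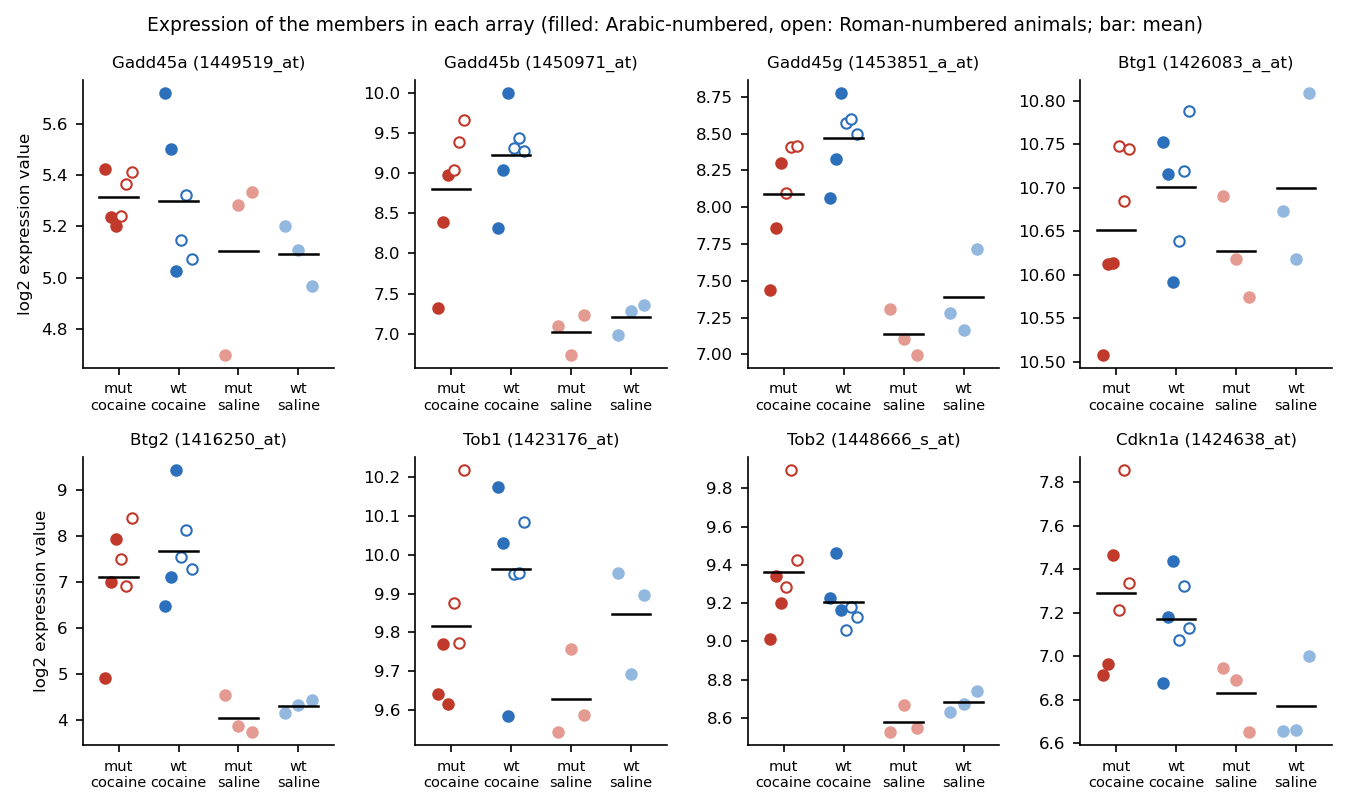
Log2 expression value (vertical axes, one scale per panel) of the brightest probe set of each of the 8 genes in the 18 arrays, by group; points are arrays, filled for Arabic-numbered and open for Roman-numbered animals, and bars are group means. All 12 cocaine arrays lie above all 6 saline arrays for Btg2 and Tob2, as for 0.41% of all tested probe sets. The groups overlap by 1 cocaine array for Gadd45b and Gadd45g, where 11 of 12 lie above, and by more for Gadd45a, Btg1, Tob1 and Cdkn1a.

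Gadd45b is the member of its family best known as an activity-induced gene in neurons. Its brightest probe set, 1450971_at, read 7.33, 8.39, 8.97, 9.04, 9.39 and 9.66 in mut mice and 8.31, 9.04, 10.00, 9.32, 9.44 and 9.28 in wt mice after cocaine. After saline it read 7.10, 6.74 and 7.23 in mut mice and 6.99, 7.28 and 7.36 in wt mice. Thus 11 of the 12 cocaine arrays were above every saline array, and mut cocaine replicate 1 fell within the saline range. The averaged difference was 1.56 ± 0.28 (SE), or 2.94-fold, with an adjusted p of 0.0239 (limma). The second probe set, 1449773_s_at, gave 1.78 ± 0.31, or 3.44-fold, with an adjusted p of 0.0169 (limma), and there all 12 cocaine arrays were above all saline arrays.

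Gadd45g, which shares the Cdk1 and MEKK4 binding of its paralogues, rose less than Gadd45b. Probe set 1453851_a_at read 7.44, 7.86, 8.30, 8.10, 8.41 and 8.41 in mut mice and 8.07, 8.32, 8.78, 8.57, 8.60 and 8.50 in wt mice after cocaine. It read 7.31, 7.10 and 7.00 in mut mice and 7.28, 7.17 and 7.72 in wt mice after saline. Here too 11 of the 12 cocaine arrays were above all saline arrays, and mut cocaine replicate 1 was below the highest saline array, wt saline replicate 3. The averaged difference was 0.87 ± 0.15 (SE), or 1.82-fold, with an adjusted p of 0.0137 (limma).

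Gadd45a, the p53 target of the family, was dim. Probe set 1449519_at read 5.42, 5.24, 5.20, 5.24, 5.37 and 5.41 in mut mice and 5.72, 5.50, 5.03, 5.15, 5.32 and 5.07 in wt mice after cocaine. It read 4.70, 5.28 and 5.34 in mut mice and 5.20, 5.11 and 4.97 in wt mice after saline, so the groups overlapped, and 5 of the 12 cocaine arrays were above all saline arrays. The averaged difference was 0.25 ± 0.13 (SE; limma adjusted p = 0.859), and its unadjusted 95% interval ran from −0.02 to 0.53.

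Btg2, an antiproliferative partner of the Caf1 deadenylases, had the largest averaged difference of the tested probe sets of these genes. Probe set 1416250_at read 4.92, 7.00, 7.94, 7.49, 6.92 and 8.39 in mut mice and 6.47, 7.11, 9.43, 7.55, 8.13 and 7.29 in wt mice after cocaine. After saline it read 4.54, 3.87 and 3.74 in mut mice and 4.16, 4.33 and 4.43 in wt mice. All 12 cocaine arrays were above all 6 saline arrays, although mut cocaine replicate 1, at 4.92, was close to the highest saline array, mut saline replicate 1 at 4.54. The averaged difference was 2.97 ± 0.51 (SE), or 7.82-fold, with an adjusted p of 0.0137 (limma). It ranked 5 by size among the 28 probe sets called over the whole array, behind probe sets for Fos, Egr2 and Fosb. The saline values lie near the value of 4 used to filter dim probe sets, where the fold depends on how background was removed.

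The second Btg2 probe set, 1448272_at, read 3.90, 5.49, 6.39, 6.01, 7.33 and 6.36 in mut mice and 5.29, 5.31, 8.04, 6.24, 6.12 and 5.90 in wt mice after cocaine. It read 3.52, 3.49 and 3.49 in mut mice and 3.35, 3.52 and 3.28 in wt mice after saline. Again all 12 cocaine arrays were above all saline arrays, but the averaged difference of 2.30 ± 0.47 (SE) had an adjusted p of 0.0679 (limma) and did not pass. All 6 saline values lie below the value of 4 used to filter dim probe sets, so this difference depends on how background was removed and is no measured fold. The 11 arrays above 4 were all cocaine arrays, so this probe set was tested only through the group where it is high. In mut cocaine replicate 5, the array that stood apart, this probe set had its highest value among the mut cocaine arrays (7.33), while 1416250_at had its lowest but one (6.92).

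Btg1, which binds the same deadenylases, was bright in every group. Probe set 1426083_a_at read 10.51, 10.61, 10.61, 10.75, 10.69 and 10.74 in mut mice and 10.75, 10.72, 10.59, 10.64, 10.72 and 10.79 in wt mice after cocaine. It read 10.69, 10.62 and 10.58 in mut mice and 10.67, 10.62 and 10.81 in wt mice after saline, and 0 of the 12 cocaine arrays were above all saline arrays. The averaged difference was −0.03 ± 0.05 (SE; limma adjusted p = 0.912), with an unadjusted 95% interval of −0.13 to 0.07. The second Btg1 probe set, 1437455_a_at, gave 0.06 ± 0.08 with an interval of −0.11 to 0.23.

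Tob2, a larger protein of the same superfamily that also binds Caf1, rose modestly. Probe set 1448666_s_at read 9.01, 9.34, 9.20, 9.28, 9.89 and 9.43 in mut mice and 9.23, 9.46, 9.16, 9.06, 9.18 and 9.13 in wt mice after cocaine. It read 8.53, 8.67 and 8.54 in mut mice and 8.63, 8.67 and 8.74 in wt mice after saline. All 12 cocaine arrays were above all 6 saline arrays, and the saline arrays were close together. The averaged difference was 0.60 ± 0.11 (SE), or 1.52-fold, with an adjusted p of 0.0226 (limma).

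The other Tob2 probe sets differed in the same direction without passing. Probe set 1448667_x_at gave 0.48 ± 0.10 (SE; limma adjusted p = 0.0704), with all 12 cocaine arrays above all saline arrays. Probe set 1417309_at, which was dim, gave 0.55 ± 0.19 (SE; limma adjusted p = 0.836), with 11 of 12 above. The suffixes _s_at and _x_at mark probes that can also match other transcripts, so the readings of 1448666_s_at and 1448667_x_at may not be of Tob2 alone. The same holds for Gadd45b probe set 1449773_s_at.

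Tob1, the paralogue of Tob2, read 9.64, 9.77, 9.62, 9.88, 9.77 and 10.22 in mut mice and 10.17, 10.03, 9.58, 9.95, 9.95 and 10.09 in wt mice after cocaine. It read 9.54, 9.76 and 9.59 in mut mice and 9.95, 9.69 and 9.90 in wt mice after saline, so the groups overlapped. The averaged difference of probe set 1423176_at was 0.06 ± 0.10 (SE; limma adjusted p = 0.913), with an unadjusted 95% interval of −0.14 to 0.27.

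Cdkn1a, measured by 1424638_at, ran from 6.91 to 7.85 in mut mice (mean 7.29 ± 0.35) and from 6.88 to 7.44 in wt mice (7.17 ± 0.19) after cocaine (SD, n = 6 each). After saline it ran from 6.65 to 6.95 in mut mice (6.83 ± 0.16) and from 6.66 to 7.00 in wt mice (6.77 ± 0.20; SD, n = 3 each). Of the 12 cocaine arrays 9 were above all saline arrays. The averaged difference of 0.34 ± 0.14 (SE) did not pass (limma adjusted p = 0.859), with an unadjusted 95% interval of 0.05 to 0.63, so a rise of the size seen in Tob2 lies within its error.

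**Figure D2:**
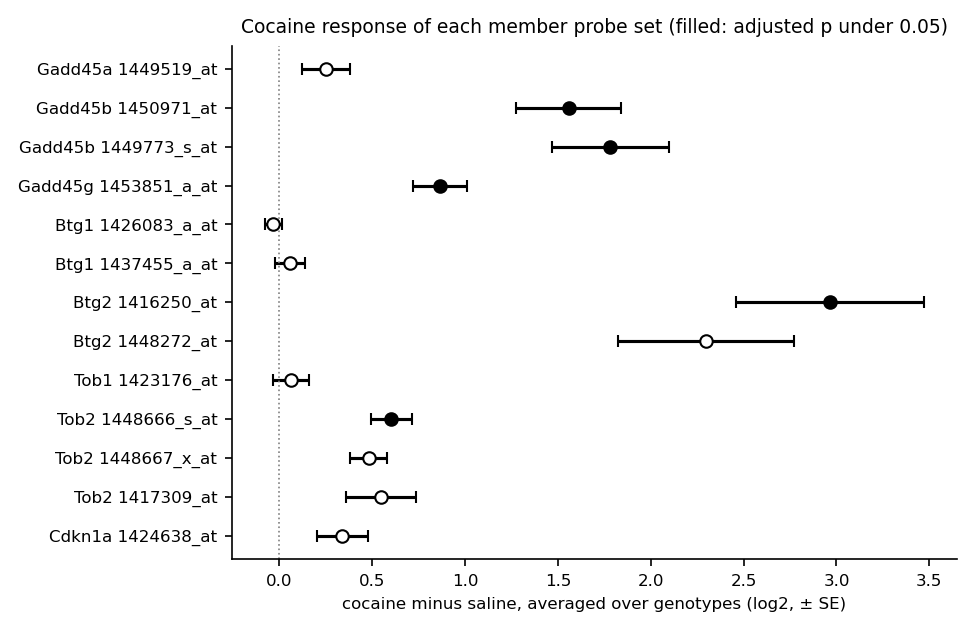
Cocaine minus saline difference averaged over mut and wt mice (horizontal axis, log2) for each of the 13 tested probe sets; points are limma estimates, bars are SE, and filled points have an adjusted p under 0.05. Btg2 1416250_at is farthest from 0 at 2.97, and both Btg1 probe sets and Tob1 lie within 0.10 of 0.

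Paralogues differed in their response to cocaine in 4 of the 5 pairs tested. Levels of different probe sets cannot be compared on an array, and responses of dim ones depend on how background was removed. This limits the pairs with Btg2, whose saline values lie near 4, and those with Gadd45a, which was dim. The log2 difference between the paralogues was taken in each of the 12 Arabic-numbered arrays. Its change with cocaine was tested by an exact two-sided permutation of treatment within genotype (400 relabellings, smallest possible p 0.005), with p adjusted over the 5 pairs that could be formed. Btg2 responded more than Btg1 by 3.00, 2.62 in mut and 3.38 in wt mice (exact p = 0.005, adjusted p = 0.0125). Tob2 responded more than Tob1 by 0.54, 0.56 in mut and 0.52 in wt mice (exact p = 0.005, adjusted p = 0.0125). In both pairs all 6 cocaine arrays were above all 6 saline arrays in this measure, and both p-values are the smallest the design allows.

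Within the Gadd45 family the order of the responses was Gadd45b, Gadd45g, Gadd45a. Gadd45b responded more than Gadd45a by 1.31, 1.03 in mut and 1.58 in wt mice (exact p = 0.02, adjusted p = 0.025). It responded more than Gadd45g by 0.69, 0.48 in mut and 0.91 in wt mice (exact p = 0.015, adjusted p = 0.025). Without mut cocaine replicate 3 or without mut saline replicate 2, both Gadd45b pairs had an adjusted p of 0.05 (exact permutation) and no longer passed. Gadd45g exceeded Gadd45a by 0.61, 0.55 in mut and 0.68 in wt mice, which did not pass (exact p = 0.07, adjusted p = 0.07). That pair did pass without replicate 1 of mut cocaine, mut saline or wt cocaine (exact permutation, adjusted p 0.04, 0.035 and 0.03), so these neighbours in the order are not resolved at this sample size. In all 5 pairs the response difference had the same sign in both genotypes.

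**Figure D3:**
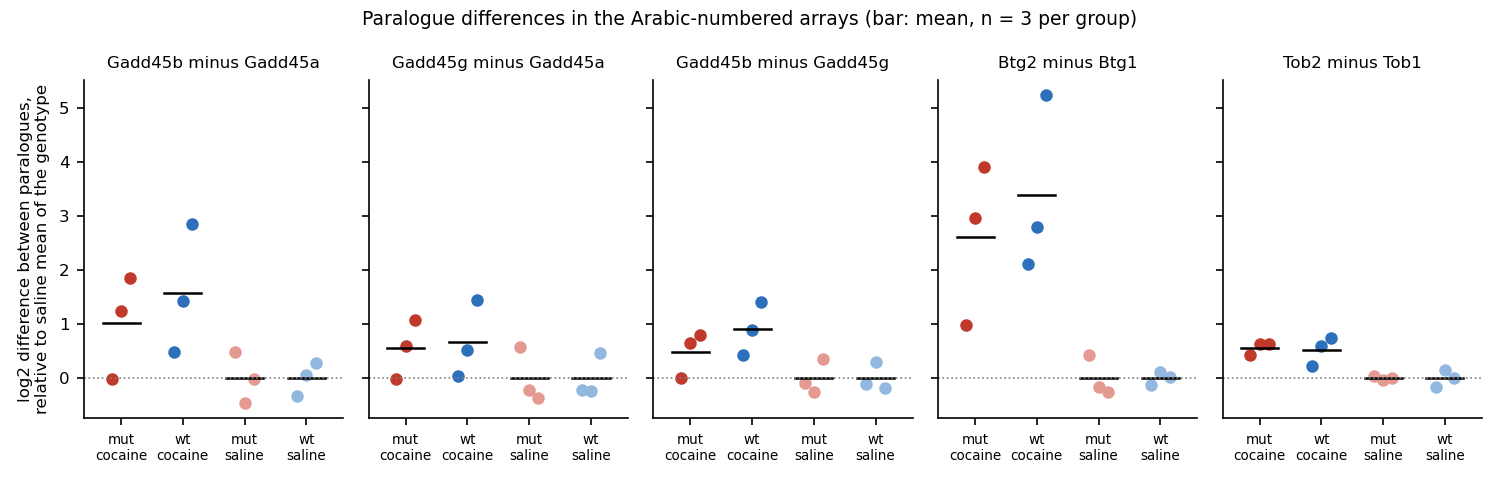
Difference between the log2 values of 2 paralogues (vertical axis) in each of the 12 Arabic-numbered arrays, relative to the mean of the saline arrays of the same genotype; points are arrays and bars are means of 3. Btg2 minus Btg1 moves most, by 2.62 in mut and 3.38 in wt mice, and Tob2 minus Tob1 moves by 0.56 and 0.52.

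Taken within each genotype, the responses had the same order and no member passed the test in either, against backgrounds of 0.0473% (6 probe sets) in mut and 0.11% (14 probe sets) in wt mice. Btg2 1416250_at differed by 2.82 ± 0.67 in mut and 3.12 ± 0.67 in wt mice (SE; limma adjusted p = 0.318 and 0.147). Gadd45b 1450971_at differed by 1.44 ± 0.38 in mut and 1.68 ± 0.38 in wt mice (SE; limma adjusted p = 0.457 and 0.179). Gadd45g differed by 0.80 ± 0.19 in mut and 0.93 ± 0.19 in wt mice (SE; limma adjusted p = 0.341 and 0.124). Tob2 1448666_s_at differed by 0.73 ± 0.14 in mut and 0.47 ± 0.14 in wt mice (SE; limma adjusted p = 0.127 and 0.916). These counts turn on single arrays. Without mut cocaine replicate 1, 4 members passed in mut and 3 in wt mice. Without mut cocaine replicate 5, 1 passed in each, against 26 (13 higher) and 28 (22 higher) of 12674 probe sets over the whole array. Over all single arrays left out, the whole-array counts ran from 0 to 26 in mut and from 0 to 28 in wt mice.

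The question the genotypes address is whether loss of CaMKIV changes the cocaine response, and the interaction term addresses it directly. It called 0 of 12674 probe sets (limma; 340 at an unadjusted p under 0.05) and 0 of the 13 of these genes, none of which had an unadjusted p under 0.05. The mut response minus the wt response was −0.30 ± 0.87 for Btg2, with an unadjusted 95% interval of −2.15 to 1.56. It was −0.24 ± 0.49 for Gadd45b, with an interval of −1.29 to 0.80. It was −0.14 ± 0.25 for Gadd45g (−0.68 to 0.40) and 0.26 ± 0.19 for Tob2 (−0.14 to 0.66). These fits pool the Roman-numbered cocaine arrays, taking the numbering difference as equal in both genotypes. Among Arabic-numbered arrays alone, Btg2 averaged 6.62 in mut and 7.67 in wt mice after cocaine, against 4.05 and 4.31 after saline. Gadd45b averaged 8.23 and 9.12 after cocaine, against 7.02 and 7.21 after saline. For both, the mut response in these arrays was further below the wt response than fitted. For each of these genes the interval is wide next to its averaged response, 2.97 for Btg2, 1.56 for Gadd45b, 0.87 for Gadd45g and 0.60 for Tob2. A difference within the interval was not detectable with 3 saline arrays per genotype.

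Compared directly after cocaine, Gadd45g was the member with the lowest unadjusted p between the genotypes. It averaged 8.09 ± 0.38 in mut and 8.47 ± 0.25 in wt mice (SD, n = 6 each). The fitted difference of −0.39 ± 0.15 (SE; 95% interval −0.70 to −0.07) did not pass (limma adjusted p = 0.427), and in this comparison 0 of 12674 probe sets passed while 11.6% had an unadjusted p under 0.05. It was −0.52 among the Arabic-numbered and −0.25 among the Roman-numbered arrays. After saline the difference was −0.25 ± 0.21 (SE), and did not pass either.

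Btg2 averaged 7.11 ± 1.21 in mut and 7.66 ± 1.02 in wt mice after cocaine, and Gadd45b averaged 8.80 ± 0.84 in mut and 9.23 ± 0.55 in wt mice (SD, n = 6 each). The fitted differences of −0.55 ± 0.51 for Btg2 and −0.43 ± 0.28 for Gadd45b (SE) did not pass (limma adjusted p = 0.603 and 0.495). They came from the Arabic-numbered arrays, at −1.05 for Btg2 and −0.89 for Gadd45b, against −0.05 and 0.02 among the Roman-numbered ones. The second probe sets changed sign between the numberings. Btg2 1448272_at was −0.95 among the Arabic-numbered and 0.48 among the Roman-numbered arrays, and Gadd45b 1449773_s_at was −0.83 and 0.40. Tob2 averaged 9.36 ± 0.30 in mut and 9.20 ± 0.14 in wt mice, a difference of 0.16 ± 0.11 (SE) that was −0.10 among the Arabic-numbered and 0.41 among the Roman-numbered arrays. After saline all 13 adjusted p-values rounded to 1.00 (limma), 0 of 12674 probe sets passed and 350 had an unadjusted p under 0.05.

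**Figure D4:**
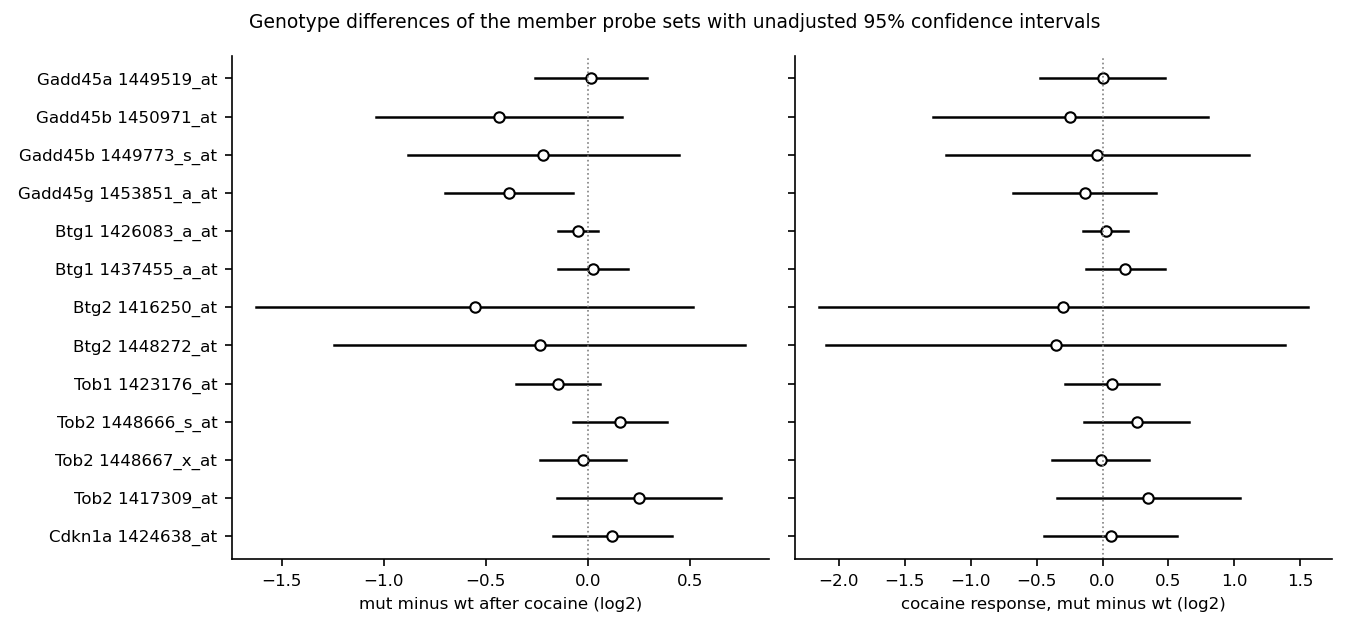
Mut minus wt difference after cocaine (left) and mut minus wt difference in the cocaine response (right), both in log2, for the 13 tested probe sets; points are limma estimates and lines unadjusted 95% confidence intervals. Every interval on the right spans 0, and on the left that of Gadd45g, −0.70 to −0.07, does not.

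Single arrays held the lowest or highest value of several of these genes at once. How often these arrays were lowest or highest over all tested probe sets was not counted, so the counts cannot be read as particular to these genes. Probe sets of the same gene are also not independent. Mut cocaine replicate 1 had the lowest value of the 12 cocaine arrays in 9 of the 13 probe sets, including all those of Gadd45b, Gadd45g, Btg1 and Btg2. The mean of the 11 tested immediate early factors was also lowest in that array, at 7.76, against 8.67 to 9.84 in the other cocaine arrays. Wt cocaine replicate 3 was highest in 5 of the 13, those of Gadd45b, Gadd45g and Btg2, and had the highest immediate early mean, 9.84. Mut cocaine replicate 5 was highest in the 3 Tob2 probe sets, in Cdkn1a and in Btg1 1437455_a_at, and it is the array with the actin difference of 3.59, whose part in these readings was not tested. Without it the Tob2 difference between mut and wt mice after cocaine was 0.05 ± 0.08 and that of Cdkn1a 0.01 ± 0.12 (SE), in place of 0.16 ± 0.11 and 0.12 ± 0.14, while that of Gadd45g was −0.42 ± 0.15 in place of −0.39 ± 0.15.

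Across arrays Gadd45b, Gadd45g and Btg2 went together. Pearson's r over the 18 arrays, which share the treatment difference, was 0.964 between Gadd45b and Gadd45g, 0.968 between Gadd45b and Btg2 and 0.945 between Gadd45g and Btg2. Among the 12 cocaine arrays alone, where treatment does not differ, it was 0.948, 0.903 and 0.843 for the same pairs. Tob2 went with them less there: its r over the cocaine arrays was 0.28 with Gadd45b, 0.13 with Gadd45g and 0.04 with Btg2. Over all arrays these were 0.80, 0.76 and 0.75. Mut cocaine replicate 5, the array that stood apart, held the highest Tob2 value, and its part in these values was not tested. Gadd45a had an r of −0.52 with Btg2 over the cocaine arrays. Btg1 and Tob1, which did not pass the test, had an r of 0.82 with each other over the cocaine arrays. These values describe arrays that share processing and have no test.

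The probe sets outside these families with the highest r over the 18 arrays were Junb (0.975), Dusp1 (0.974) and Tiparp (0.967) for Gadd45b 1450971_at. For Gadd45g they were Bhlhe40 (0.964), Dusp1 (0.963) and Junb (0.963), and for Btg2 1416250_at Dusp1 (0.976), Junb (0.966) and Fos (0.956). For Tob2 1448666_s_at they were Mcl1 (0.944), Bcl6 (0.907) and Fbxo33 (0.903), none of which was among the 3 closest of Gadd45b, Gadd45g or Btg2. Junb and Fos are AP-1 transcription factors, Dusp1 is a MAP kinase phosphatase, Bhlhe40 and Bcl6 are transcriptional repressors and Mcl1 is an anti-apoptotic protein.

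Among the partners through which these proteins act, no tested gene passed. The deadenylase list held genes of CCR4-NOT, the complex that Btg and Tob proteins recruit, and also Pan2, Parn and Pabpc1, which are not part of it. Of its 15 genes 11 were tested, 0 passed and the median averaged difference was −0.03. The brightest were Pabpc1, the poly(A) binding protein, at −0.03 ± 0.06, and Cnot7, which encodes Caf1, at −0.05 ± 0.03 (SE). Of 11 Gadd45 partners 8 were tested and 0 passed (median 0.00), with Pcna at −0.01 ± 0.08 and the repair endonuclease Apex1 at −0.07 ± 0.06. Of 6 further Btg and Tob partners 4 were tested and 0 passed (median 0.07), with the signal transducer Smad4 at 0.05 ± 0.06 and the arginine methyltransferase Prmt1 at 0.08 ± 0.18.

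The tested genes of the p53 pathway, the other CDK inhibitors and the G1 cell cycle did not pass either. Of 18 genes of the p53 pathway 12 were tested and 0 passed (median −0.01), with Ei24 at 0.01 ± 0.04 and Sesn1 at −0.02 ± 0.09. Of the 7 other CDK inhibitors 2 were tested, Cdkn2d at −0.11 ± 0.06 and Cdkn1b at 0.01 ± 0.12, and of 14 G1 cell cycle genes 8 were tested and 0 passed (median 0.06), with cyclin D2 (Ccnd2) at 0.14 ± 0.08 and the pocket protein gene Rbl2 at −0.09 ± 0.09. In the list of immediate early transcription factors 7 of the 11 tested genes rose, Fos, Fosb, Junb, Egr1, Egr2, Egr4 and Nr4a1, and the median was 2.08. Fos rose by 4.55 ± 0.48 and Egr1 by 0.72 ± 0.12 (SE; limma adjusted p = 0.000553 and 0.0134). No marker list of spiny neurons, astrocytes, oligodendrocytes, microglia, endothelium, cortical neurons or choroid plexus had a gene past the test in either direction. The microglial list had the most uniform sign, 7 of 7 positive with a median of 0.11, and its part in the responses was not tested.

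The numbering of the animals was a source of difference over the array, with 781 probe sets or 6.16% called between Roman-numbered and Arabic-numbered cocaine arrays (limma), 2.54% higher and 3.62% lower in the Roman-numbered ones, but 0 of the 13 of these genes. The count ran from 241 to 3783 when single arrays were left out, highest without mut cocaine replicate 5, and none of the 8 leading probe sets passed in any of these. Gadd45b 1450971_at had the largest such difference, 0.68 ± 0.28 (SE; limma adjusted p = 0.154), and 11 of the 13 were positive. As no saline animal is Roman-numbered, how far the cocaine response differs between the numberings cannot be told apart from their levels.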

How the data were processed

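Per the submitters' processing notes, the authors made the deposited log2 expression values with GCRMA in R 2.4.1; its other settings were not stated there. The table held 22690 probe sets, of which 64 Affymetrix controls were left out and 12674 exceeding 4 on the log2 scale in 3 or more arrays were tested. Symbols came from the platform annotation: 20393 probe sets had 1 symbol, and 0 symbols changed when updated through gene IDs.

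The log2 values as deposited were fitted with limma 3.58.1 in R 4.3.3 (group and numbering as terms, trended variance, residual df 13), with Benjamini-Hochberg adjustment over all tested probe sets. The fit and the permutation test were tested on simulated data. Paralogue pairs were planned for the whole families, but those with Btg3 could not be formed, so p was adjusted over 5.

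Members and lists were chosen with earlier results of these data known. Every member is named with each probe set of its own. From each list the genes that passed are named, or the 2 brightest, and for each member that passed, the 3 genes of highest r. Residuals of samples with the same replicate number correlated by 0.0045 on average, with 6 of 21 pairs over 0.1. Those in the same block of consecutive animal numbers correlated by 0.036, with 8 of 21 over 0.1. No label gives a pairing, so numbers were not taken as pairs. Alternatives changed the filter, the numbering term, the variance trend, array weights and blocks, and left out each array. Replicates are separate animals.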

Additional observations from a re-analysis of the deposited data

Results flagged for a closer look

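In wt mice after cocaine, Btg2 probe set 1448272_at read 8.04 in replicate 3, against 5.29 to 6.24 in the other 5 arrays. The gap to the next array was 0.655 of the group's range, above the critical value of 0.625 for 6 samples. It was the only 1 of 26 combinations of probe set and cocaine group examined that passed, and chance passes about 1 in 20. The brighter Btg2 probe set 1416250_at was also highest in that array, at 9.43.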

How the results depend on the processing

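Over 28 settings, the averaged cocaine difference kept its sign for the tested probe sets of these genes except Btg1 1426083_a_at and Tob1, which changed sign in 1 setting each. Btg2 1416250_at passed in 27 of them (2.52 to 3.40), Gadd45g in 26 (0.76 to 1.02), Gadd45b 1449773_s_at in 20 (1.53 to 2.05), and Gadd45b 1450971_at (1.31 to 1.90) and Tob2 1448666_s_at (0.54 to 0.67) in 18. The genes passing numbered 4, but 1, Gadd45g, with a replicate block of consecutive animal numbers, which rest on no label of pairing; the other called probe sets then had adjusted p-values of 0.0543 to 0.0585 (limma). With the replicate number as a replicate block 4 passed, and 1 in place of 6 probe sets was called in mut mice. Over the whole array, the averaged call of 28, all higher after cocaine, became 67 (64 higher) with no series term, 430 (98 higher) with Arabic-numbered arrays only, 103 (60 higher) with array weights, 16 (16 higher) with the consecutive block, 382 (90 higher) with both the Arabic-numbered arrays only and that block, and 224 (51 higher) with an actin term and without mut cocaine replicate 5. It ran from 20 to 362 when single arrays were left out, the 362 (95 higher) without mut cocaine replicate 5. Calls in mut mice (6, all higher) became 1 with no filter, 14 with no series term, 3 with Arabic-numbered arrays only (0 higher, so none of the 6), 11 with weights and 0 with the consecutive block, and ran from 0 to 26 with single arrays left out. Calls in wt mice (14, all higher) became 24 (24 higher), 43 (25 higher), 27 (26 higher) and 0 under the last 4 of these, and ran from 0 to 28. The genes passing in mut mice (0) became 1 with no series term and 1 with weights, and ran from 0 to 4. Those in wt mice (0) became 3 with no series term, 1 with Arabic-numbered arrays only and 2 with weights, and ran from 0 to 3. For the average they ran from 1 to 4. Calls between mut and wt after cocaine ran from 0 to 1. Calls between the numberings (781) became 480 with no filter and 3638 with weights, and ran from 241 to 3783. Paralogue differences with single arrays left out ran from 2.54 to 3.41 for Btg2 minus Btg1, 0.99 to 1.58 for Gadd45b minus Gadd45a, 0.57 to 0.81 for Gadd45b minus Gadd45g, 0.42 to 0.77 for Gadd45g minus Gadd45a and 0.48 to 0.61 for Tob2 minus Tob1. Gadd45g minus Gadd45a passed with the consecutive block (0.61, exact permutation adjusted p = 0.0313) and over all 18 arrays (0.81). The causes were not tested.

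Signs changed among values that did not pass. With no series term the Btg1 response was 0.013 averaged, 0.024 in mut and 0.00102 in wt mice. With Arabic-numbered arrays only, the difference between mut and wt after cocaine was −0.13 for Gadd45a, −0.098 for Tob2 and −0.051 for Cdkn1a, and the interaction −0.14 for Gadd45a, −0.0363 for Btg1, −0.0362 for Tob1 and −0.11 for Cdkn1a. With Roman-numbered arrays only, the difference after cocaine was 0.0195 for Gadd45b and 0.0103 for Btg1. With array weights, the Tob1 response in wt mice was −0.019, Cdkn1a after cocaine −0.041, Gadd45a after saline −0.0454, and the interaction −0.00266 for Btg1 and −0.14 for Cdkn1a. With single arrays left out, the Btg1 response ran from −0.0466 to 0.0131 in mut and −0.0842 to 0.0113 in wt mice, and the Tob1 response from −0.00143 to 0.13 averaged and −0.0700 to 0.13 in wt mice. The interaction ran from −0.0314 to 0.0641 for Btg1, −0.54 to 0.15 for Btg2, −0.0504 to 0.14 for Cdkn1a, −0.20 to 0.12 for Gadd45a and −0.39 to 0.00672 for Gadd45b. The difference between mut and wt ran from −0.0561 to 0.0981 for Gadd45a after cocaine, and after saline from −0.10 to 0.22 for Gadd45a and −0.00132 to 0.17 for Cdkn1a. Tob2 between the numberings ran from −0.0138 to 0.16.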
